A study of Mus musculus with 18 samples.

Results

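Cumulus cells and mural granulosa cells of the mouse ovary were compared across all genes as they stood before the ovulatory signal, in the 3 cumulus and the 3 mural libraries labelled 0 h of hCG. These are 6 of the 18 libraries of the series, and they were chosen by the cell type and time in their titles, not by any measured value. The series sampled both cell types at 0, 4 and 12 h after injection of hCG, a hormone that acts on the luteinizing hormone receptor and triggers ovulation, with 3 libraries in each of the 6 groups. All libraries came from ovaries labelled WT. Strain, age, hormonal priming and the number of animals per library are not stated in the labels. Because the labels do not say whether libraries of a group came from separate animals or pools, the p-values below measure the spread between these libraries, which may in part be technical.

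In a large follicle the granulosa cells form 2 populations. Mural cells line the follicle wall beside the basement membrane and the theca, turn theca androgens into oestradiol and carry the luteinizing hormone receptor, whereas cumulus cells enclose the oocyte, are coupled to it by gap junctions and are known in the mouse to feed it products of glycolysis, amino acids and cholesterol. The oocyte proteins GDF9 and BMP15 are known in the mouse to shape the cumulus cells around it, and mural cells send CNP, the product of Nppc, to its receptor NPR2 on cumulus cells, which keeps the oocyte in meiotic arrest.

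Levels are given as CPM, the counts of a gene scaled to the same total in every library, in the order of replicates 1, 2 and 3. A log2 fold change is cumulus over mural, so that a positive value is higher in cumulus libraries, and the figure after ± is its standard error, with n = 3 libraries a group. A gene was called higher or lower where the Benjamini-Hochberg adjusted p of edgeR's quasi-likelihood test was under 0.05, and every adjusted p comes from that test over all 19941 genes tested. The lists of genes by role held 486 genes, of which 471 passed the filter on low counts.

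The libraries held 37272718, 43667378 and 37812328 counts in the cumulus group and 47919446, 34854079 and 38904774 in the mural group. A count of 3 stands for 0.06 to 0.0819 CPM in cumulus and 0.0585 to 0.0755 CPM in mural libraries. The cell-type field of 8 of the 9 cumulus libraries of the series names mural cells, and groups were taken from the titles. Of 12 genes known to be high in mural cells, 10 were called lower in the cumulus libraries of 0 h. Genes known as cumulus markers were mixed, with 6 of 16 called higher and 3 lower. Of all genes tested, 21.5% were called higher and 25.3% lower. Cumulus replicate 1 stood apart from the other cumulus libraries. Its chi-square per degree of freedom over genes was 81.3 and 82.9 against replicates 2 and 3, which gave 8.71 against each other, and the 3 mural pairs gave 8.91, 28.2 and 17.5. Without it 9228 genes were called, against 9333 with it. Granulosa markers were abundant in all 6 libraries, summing to 6146 to 8405 CPM in cumulus and 12864 to 16030 CPM in mural libraries. Several sets of markers of the follicle's surroundings were higher in mural libraries. The 8 theca markers, all called lower in cumulus libraries, summed to 45.5 to 74.6 CPM in cumulus and 1523 to 1724 CPM in mural libraries. That list includes Cyp11a1 and Lhcgr, and Lhcgr alone had 689.5, 729 and 569 CPM in the mural libraries. Mural granulosa cells carry this receptor themselves, so the theca sum is not a measure of theca RNA alone. The 12 markers of stroma and smooth muscle, 10 of them called lower, summed to 23.0 to 37.3 CPM in cumulus and 739 to 1450 CPM in mural libraries. Red-cell markers summed to 8.73 to 17.8 CPM in cumulus and 87.9 to 145.9 CPM in mural libraries, endothelial markers to 19.3 to 27.8 CPM and 45.8 to 71.1 CPM, and markers of the ovarian surface epithelium to 2.68 to 3.66 CPM and 31.6 to 46.3 CPM. Macrophage markers overlapped, at 12.6 to 28.5 CPM in cumulus and 19.3 to 39.2 CPM in mural libraries, and neutrophil markers stayed at or under 0.86 CPM in both groups. Lymphocyte markers were at 2.68 to 9.31 CPM in cumulus and 1.25 to 3.47 CPM in mural libraries. Of the 4 of them tested, 2 correlated within groups with the oocyte markers (r of at least 0.7). Oocyte RNA ran the other way and varied within groups, with marker sums of 427, 1995 and 2087 CPM in cumulus and 155, 260 and 646 CPM in mural libraries, and 15 of the 16 oocyte markers were called higher in cumulus. That count fell to 4 without cumulus replicate 2 or cumulus replicate 3 and to 3 without mural replicate 1 or mural replicate 2. It was 5 without the filter on low counts, 4 in a fit to the libraries of 0 h only, and 4 with 2 markers lower where the oocyte sum was a covariate. That sum is made of these same markers, so that a fall in the count with it follows largely from its make-up. In whole-cell RNA of mixed samples, fewer cells of a type and less RNA per cell cannot be told apart.

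**Figure D1:**
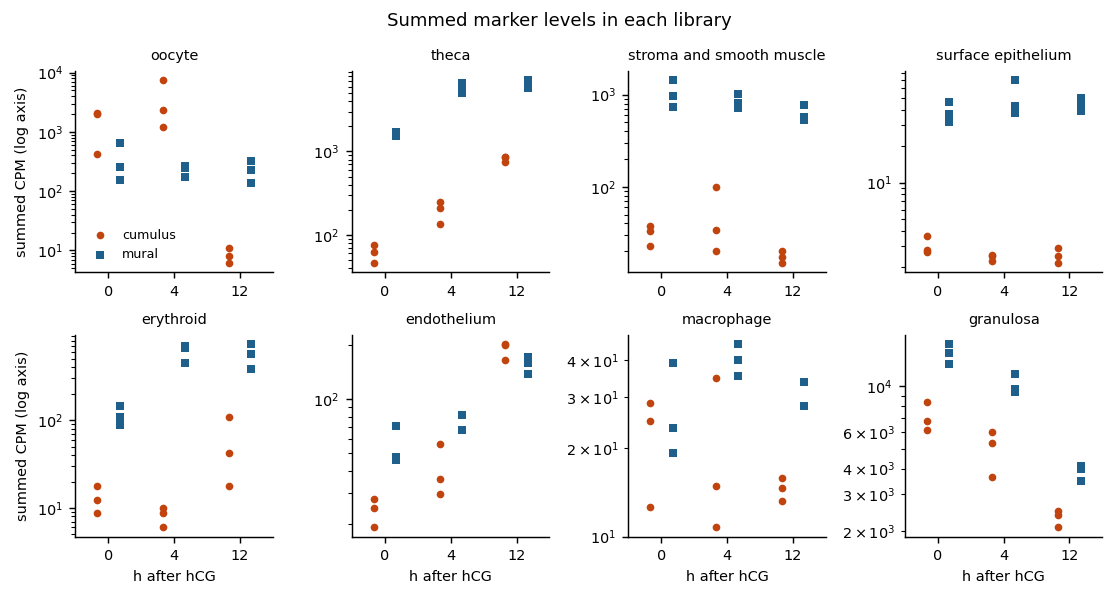
Summed CPM (log axis) of the marker genes of 8 cell types in each library, with circles for cumulus and squares for mural libraries at 0, 4 and 12 h. At 0 h theca markers sit at 45.5 to 74.6 CPM in cumulus and 1523 to 1724 CPM in mural libraries, while cumulus replicate 1 (427 CPM) is below mural replicate 3 (646 CPM) for oocyte markers.

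The cell types differed at a large part of the transcriptome. Of the genes tested, 9333 (46.8%) were called, 4295 higher (21.5%) and 5038 lower (25.3%) in cumulus libraries, and 4679 of them (23.5% of those tested) differed by at least 2-fold. The groups of 3 did not overlap at 11199 genes (56.2%), 4935 of them with cumulus higher (24.7%) and 6264 with cumulus lower (31.4%). These shares are the background for the counts of the gene lists that follow. Large differences lay mostly on the mural side. Among called genes, 674 had a log2 fold change of -3 or less and 174 had one of 3 or more. Of the called genes, 1056 of those higher and 97 of those lower tracked the oocyte markers across the 18 libraries within groups (r of at least 0.7), which left 3239 genes higher and 4941 lower without such a link.

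**Figure D2:**
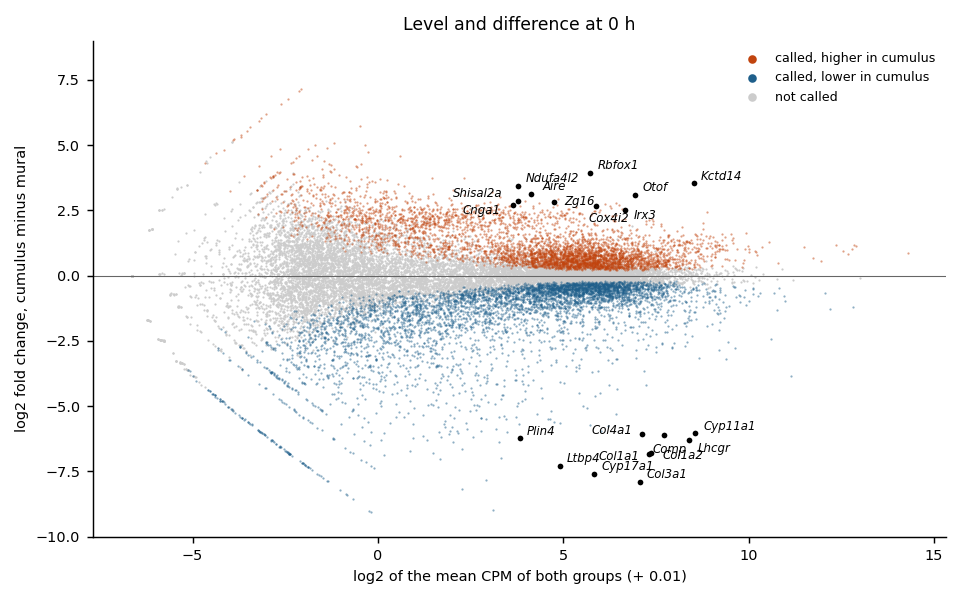
Log2 fold change of cumulus over mural libraries at 0 h against the log2 of the mean CPM of both groups (with 0.01 added) for all 19941 genes tested, with called genes coloured by direction. Black points are the 10 largest rises and falls, from Rbfox1 at the top to Col3a1 at the bottom. They were ranked among called genes without overlap, of at least 20 CPM, with no oocyte link and no clone or predicted name.

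Ranked by fold change were called genes whose groups did not overlap, with 20 CPM or more on average in the higher group. Genes with clone or predicted names were left out, as were those with r of 0.7 or more with the oocyte markers. The lack of overlap in the genes named from this ranking therefore follows from the rule. The limit on r leaves in weaker and inverse correlations, such as 0.49 for Aire and -0.61 for Ndufa4l2. The largest rise was that of Rbfox1, a regulator of RNA splicing known from neurons and muscle. Rbfox1 (GRCm38 chr16:5885355-7411526) had 105, 99.1 and 95.5 CPM in cumulus, against 6.09, 6.32 and 7.12 CPM in mural libraries, a log2 fold change of 3.94 ± 0.12 (adjusted p = 1.01e-12). Kctd14 had 747, 634 and 646 CPM in cumulus, against 60.9, 54.2 and 59.4 CPM in mural libraries, a log2 fold change of 3.54 ± 0.40. In both genes every cumulus library lay far above every mural library. Otof, which encodes the calcium sensor otoferlin of inner-ear synapses, had 218, 204 and 238 CPM in cumulus, against 25.3, 22.1 and 30.2 CPM in mural libraries (3.09 ± 0.23). Aire, the thymic regulator of self-antigen expression, had 32.8, 27.9 and 34.1 CPM in cumulus, against 4.29, 2.87 and 3.69 CPM in mural libraries (3.12 ± 0.42). Cnga1, a subunit of the cGMP-gated channel of rod photoreceptors, had 23.3, 20.3 and 20.98 CPM in cumulus, against 2.52, 3.45 and 3.98 CPM in mural libraries (2.701 ± 0.21). Otof, Aire and Cnga1 are best known from other tissues. A pair of mitochondrial protein genes was among them too: Ndufa4l2, a relative of a respiratory chain subunit, had 30.2, 22.3 and 23.5 CPM in cumulus, against 2.56, 1.86 and 2.51 CPM in mural libraries (3.45 ± 0.29). Cox4i2, the alternative form of a cytochrome oxidase subunit, had 119.7, 88.1 and 98.3 CPM in cumulus, against 18.8, 14.8 and 14.1 CPM in mural libraries (2.68 ± 0.32). Irx3, a homeobox transcription factor, had 207, 166 and 148 CPM in cumulus, against 33.98, 30.5 and 25.8 CPM in mural libraries (2.53 ± 0.20). Shisal2a (2.88 ± 0.24) and Zg16, a lectin of secretory granules (2.83 ± 0.25), completed the 10, with adjusted p = 4.69e-08 and adjusted p = 8.30e-08.

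Of the 10 largest falls, Lhcgr and Cyp11a1 are described with steroid synthesis, and Col1a1, Col1a2, Col3a1 and Col4a1 with the matrix. Cyp17a1, the androgen-forming enzyme that defines theca cells, had 0.601, 0.8404 and 0.299 CPM in cumulus, against 101, 106 and 136 CPM in mural libraries, a log2 fold change of -7.5998 ± 0.47 (adjusted p = 8.16e-09). Ltbp4, which holds latent TGF-beta in the matrix, had 0.573, 0.4402 and 0.138 CPM in cumulus, against 53.9, 42.03 and 82.8 CPM in mural libraries (-7.29 ± 0.38). Comp, a matrix glycoprotein of cartilage and tendon, had 10.7, 5.46 and 2.07 CPM in cumulus, against 441, 366 and 432 CPM in mural libraries (-6.099 ± 0.42, -6.77 without cumulus replicate 1). Plin4, a coat protein of lipid droplets, had 0.218, 0.5002 and 0.368 CPM in cumulus, against 12.7, 29.3 and 42.1 CPM in mural libraries (-6.23 ± 0.54). The ranking rule required that no cumulus library reach the lowest mural library for any of them. The theca marker sum given above, which includes Cyp17a1, Lhcgr and Cyp11a1, moved in the same direction. So did the stroma sum, which includes Col1a1, Col1a2 and Col3a1. The part of theca and stroma RNA in these differences was not tested.

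Genes of hormone reception and steroid synthesis were much lower in cumulus libraries. Of 12 genes known to be high in mural cells, 10 were called lower in cumulus libraries and none higher, with a median log2 fold change of -2.51, where the median of all genes tested was -0.03 and 25.3% were lower. None of the 12 was higher at an unadjusted p under 0.05 or by DESeq2 either, which holds as well for the other role lists below that had no gene called in a direction. Lhcgr, the receptor for luteinizing hormone and hCG (GRCm38 chr17:88716481-88791990), had 13.7, 9.44 and 2.41 CPM in cumulus, against 689.5, 729 and 569 CPM in mural libraries, a log2 fold change of -6.29 ± 0.50 (adjusted p = 3.20e-08). Cyp11a1, the side-chain cleavage enzyme that opens steroid synthesis, had 14.3, 16.03 and 3.03 CPM in cumulus, against 632, 788 and 784 CPM in mural libraries (-6.04 ± 0.48, adjusted p = 2.73e-08). Cyp19a1, the aromatase that makes oestradiol, had 93.6, 70.01 and 83.03 CPM in cumulus, against 828, 807 and 568 CPM in mural libraries (-3.16 ± 0.27). The groups were far apart for each of these genes, and cumulus replicate 3 was the lowest library for Lhcgr and Cyp11a1. Prlr, the prolactin receptor, had 17.1, 18.5 and 10.98 CPM in cumulus, against 291, 297 and 267 CPM in mural libraries (-4.196 ± 0.25). Cd34, a surface sialomucin known in the mouse ovary from mural cells and from vessels, had 1.86, 0.8204 and 0.597 CPM in cumulus, against 56.5, 48.02 and 53.01 CPM in mural libraries (-5.62 ± 0.41). The receptor for follicle-stimulating hormone did not follow them: Fshr had 316, 292 and 287 CPM in cumulus, against 253, 261 and 269 CPM in mural libraries, and although the groups did not overlap, the difference was not called (0.19 ± 0.19, adjusted p = 0.41). It was called in 1 of 12 alternatives, the libraries of 0 h only (0.22, adjusted p = 0.043).

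The promoters of Lhcgr, Cyp11a1 and Hsd3b1 are shown because these genes, all lower in cumulus libraries, hold the letters TCAAGG close to the start site. These are the first 6 letters of TCAAGGTCA, the site to which the steroidogenic factors SF-1 and LRH-1 bind. The sequences are RefSeq windows of GRCm38.p6, 250 bases before to 50 after the start site, read 5′ to 3′ on the gene's own strand, at chr17:88791965-88792264 (minus), chr9:58014702-58015001 (plus, the window of 2 in the table that holds the letters) and chr3:98859745-98860044 (minus), with TCAAGG or its reverse complement CCTTGA in capitals.
Lhcgr: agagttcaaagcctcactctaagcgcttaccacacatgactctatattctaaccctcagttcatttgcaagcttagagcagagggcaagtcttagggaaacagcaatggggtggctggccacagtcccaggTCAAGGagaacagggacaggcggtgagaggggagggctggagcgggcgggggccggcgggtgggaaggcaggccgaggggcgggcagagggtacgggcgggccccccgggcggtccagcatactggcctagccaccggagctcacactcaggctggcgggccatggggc
Cyp11a1: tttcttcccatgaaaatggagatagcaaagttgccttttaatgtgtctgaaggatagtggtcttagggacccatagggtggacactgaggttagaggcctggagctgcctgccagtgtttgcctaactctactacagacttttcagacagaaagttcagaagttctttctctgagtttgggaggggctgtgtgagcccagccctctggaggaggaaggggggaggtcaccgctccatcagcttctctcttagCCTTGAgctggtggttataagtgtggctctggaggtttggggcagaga
Hsd3b1: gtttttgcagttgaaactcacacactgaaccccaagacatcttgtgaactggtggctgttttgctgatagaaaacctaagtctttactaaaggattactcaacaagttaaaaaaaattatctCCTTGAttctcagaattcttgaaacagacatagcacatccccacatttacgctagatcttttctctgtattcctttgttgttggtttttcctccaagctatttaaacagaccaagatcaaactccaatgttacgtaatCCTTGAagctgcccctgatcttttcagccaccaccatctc
The letters, searched on both strands and chosen after the sequences had been seen, were found in windows of 4 of the 12 matched genes among 16 (the steroid list and Lhcgr), the other being Fdx1, against 4420 of 27025 genes (16.4%) and 4744 of 32851 windows (14.4%). The longer form TCAAGGTCA was in 139 windows (0.423%) and in none of the 12 genes. A match is a description of the sequence and not evidence of binding.

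**Figure D3:**
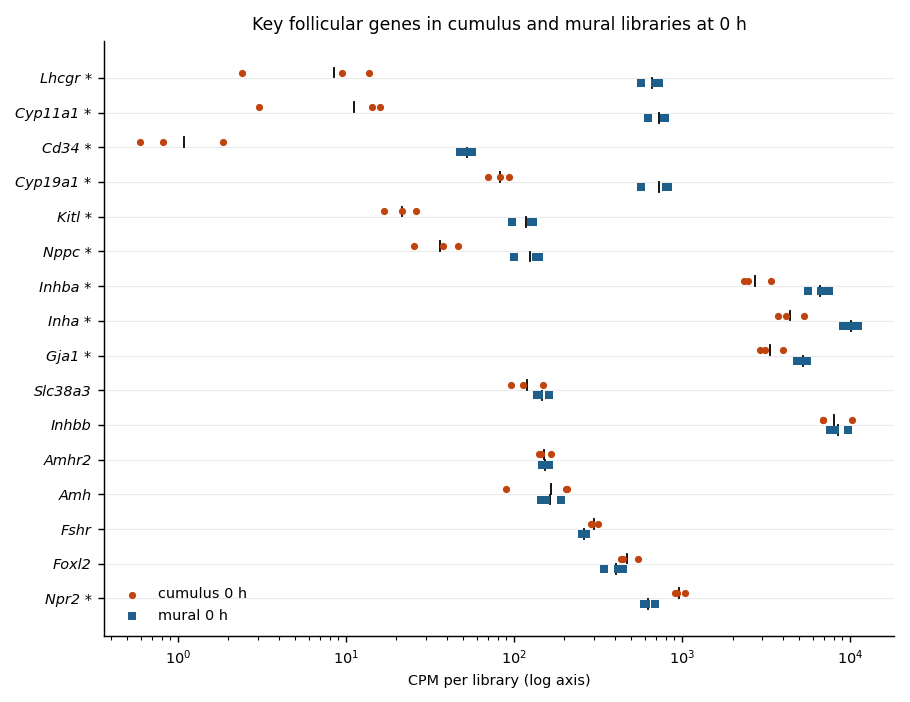
CPM (log axis) of 16 follicular genes in each library of 0 h, with cumulus (circles) drawn above mural (squares), a black bar at each group's mean and a star on called genes. Lhcgr, Cyp11a1 and Cd34 stand far apart, whereas the libraries overlap for Amh and Amhr2.

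Of 15 tested genes of steroid hormone synthesis, 12 were called lower in cumulus libraries and none higher (median log2 fold change -1.20, and -2.06 without cumulus replicate 1). Hsd3b1, which turns pregnenolone into progesterone, had 361, 299 and 221 CPM in cumulus, against 4644, 4364 and 3729.7 CPM in mural libraries (-3.85 ± 0.20, adjusted p = 2.63e-10). Star, which brings cholesterol to the inner mitochondrial membrane, had 3.49, 3.802 and 3.86 CPM in cumulus, against 15.6, 23.3 and 25.9 CPM in mural libraries (-2.53 ± 0.24). Fdx1, the electron carrier for CYP11A1, had 41.99, 31.5 and 26.98 CPM in cumulus, against 157, 172 and 137 CPM in mural libraries (-2.21 ± 0.23). In each the cumulus libraries lay below all mural libraries. Hsd17b1, which makes oestradiol from oestrone, differed less, at 926 ± 136 CPM in cumulus and 1315 ± 173 CPM in mural libraries (SD, n = 3; -0.51 ± 0.19, adjusted p = 0.039), and lost its call without cumulus replicate 2 (-0.44), cumulus replicate 3 (-0.43), mural replicate 1 (-0.41) or mural replicate 2 (-0.48) and with the oocyte sum as a covariate (-0.25). The nuclear receptors that drive these genes split. Nr5a2, which encodes LRH-1, was lower at 607 ± 58.4 CPM in cumulus and 1341 ± 166 CPM in mural libraries (SD, n = 3; -1.14 ± 0.13), while Nr5a1, which encodes SF-1, was not called at 444 ± 63.6 CPM in cumulus and 373 ± 37.7 CPM in mural libraries (0.25 ± 0.14, adjusted p = 0.14), except with the oocyte sum as a covariate (0.55). Lhcgr, Cyp11a1, Star and Cyp17a1 are also theca markers, and the part of theca RNA in their differences was not tested. Hsd3b1 has close relatives in the mouse genome, so that the split of reads among them is uncertain.

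The genes known in the mouse as cumulus markers gave a mixed picture. Of 16 genes in that list, 6 were called higher and 3 lower, against 21.5% and 25.3% of all genes. The median log2 fold change was 0.15, and it was 0.06 without cumulus replicate 1 and 0.27 without cumulus replicate 3. Some lists share members, so that their counts are not independent. Pfkp, the largest rise in the cumulus list, is also the largest in the glycolysis list. Amh, which encodes anti-Müllerian hormone, had 206, 205 and 90.3 CPM in cumulus, against 146, 156 and 191 CPM in mural libraries, with no call (0.02 ± 0.40, adjusted p = 0.97). The cumulus values spanned the mural ones, and leaving out a library or changing the scaling turned the sign. Slc38a3, an amino acid transporter that cumulus cells use for the oocyte, had 96.1, 148 and 113 CPM in cumulus, against 141, 137 and 162 CPM in mural libraries, again with no call (-0.30 ± 0.28, adjusted p = 0.41). Amhr2, the receptor for anti-Müllerian hormone, had 167, 145 and 141 CPM in cumulus, against 161, 152 and 147 CPM in mural libraries (-0.02 ± 0.19, adjusted p = 0.94). The groups overlapped for all 3. An adjusted p above 0.05 does not show that the cell types were equal at these genes. Npr2, the CNP receptor, was higher, with 1038, 911 and 931 CPM in cumulus, against 689, 593 and 612 CPM in mural libraries (0.60 ± 0.16, adjusted p = 0.0063), and its groups did not overlap.

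Of 13 genes of natriuretic peptide and cGMP signalling, 4 were called higher and 6 lower in cumulus libraries, against 21.5% and 25.3% of all genes. The median log2 fold change was -0.78. Without cumulus replicate 1 it was -0.46, with 6 higher, and without cumulus replicate 2 it was -0.50, with 3 higher. Ligand and receptor lay on opposite sides. Nppc, which encodes the ligand CNP, had 46.3, 37.7 and 25.4 CPM in cumulus, against 140.2, 134 and 101 CPM in mural libraries (-1.78 ± 0.27, adjusted p = 4.86e-05), lower in every cumulus library, whereas its receptor Npr2 was higher. Npr1, the receptor for the atrial and brain peptides, had 1.06, 1.72 and 0.368 CPM in cumulus, against 51.2, 47.2 and 47.8 CPM in mural libraries (-5.51 ± 0.44, -6.11 without cumulus replicate 2). Pde5a, a phosphodiesterase that breaks down cGMP, had 5.38, 4.52 and 5.19 CPM in cumulus, against 17.8, 15.01 and 16.1 CPM in mural libraries (-1.697 ± 0.12). Pde3a, the phosphodiesterase of the oocyte, had 4.996, 36.1 and 38.6 CPM in cumulus, against 3.28, 5.64 and 12.3 CPM in mural libraries; it was called higher (1.91 ± 0.66) but tracked the oocyte markers, and with those as a covariate its log2 fold change was -0.37. Its call was also lost with library totals (1.90), without the filter (1.91), with the libraries of 0 h only (1.94), and without cumulus replicate 2 (1.65), cumulus replicate 3 (1.56), mural replicate 1 (1.58) or mural replicate 2 (1.79), and the value was 2.63 without mural replicate 3.

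Coupling and signals to the oocyte differed as well. Gja1, the connexin that joins granulosa cells to each other, had 4016, 3132 and 2899 CPM in cumulus, against 5515, 5399.7 and 4829 CPM in mural libraries, lower in every cumulus library (-0.65 ± 0.17, adjusted p = 0.0053), and lost its call with the oocyte sum as a covariate (-0.37, adjusted p = 0.08). Gja4, the connexin of the oocyte's own junctions, had 13.98, 63.8 and 58.2 CPM in cumulus, against 2.73, 5.31 and 14.1 CPM in mural libraries (2.62 ± 0.66, 3.54 without mural replicate 3) and tracked the oocyte markers. Its call was lost with the libraries of 0 h only (2.63, adjusted p = 0.058), and its log2 fold change was 0.65 with the oocyte sum as a covariate. Of the 11 genes of gap junctions and adhesion, 2 were called higher and 7 lower, against 21.5% and 25.3% of all genes. The median log2 fold change was -0.44, and 4 of the 11 tracked oocyte RNA. The count of those higher was 1 without any 1 of cumulus replicates 2 and 3 and mural replicates 1 and 2. Kitl, whose product acts on the KIT receptor of the oocyte and of theca cells, had 26.1, 16.9 and 21.5 CPM in cumulus, against 129, 126 and 98.1 CPM in mural libraries (-2.46 ± 0.24, adjusted p = 3.51e-07), with every cumulus library far below the mural ones. Gdf9 and Bmp15 are made by the oocyte: Gdf9 had 74.1, 341 and 361 CPM in cumulus, against 24.6, 43.8 and 109.5 CPM in mural libraries (2.13 ± 0.66). Bmp15 had 42.7, 217 and 239.6 CPM in cumulus, against 15.3, 28.4 and 68.8 CPM in mural libraries (2.15 ± 0.65). Cumulus replicate 1 lay below mural replicate 3 for both, and with the oocyte sum as a covariate the log2 fold changes were 0.02 and -0.0012. Gdf9 and Bmp15 are part of that sum, so that values near 0 with it follow largely from its make-up. Both calls were lost without the filter (adjusted p = 0.064 for Gdf9 and 0.059 for Bmp15), with the libraries of 0 h only (0.093 and 0.098), and without any 1 of cumulus replicates 2 and 3 and mural replicates 1 and 2 (1.76 to 1.96 for Gdf9, 1.79 to 1.996 for Bmp15), and without mural replicate 3 the values were 2.96 and 2.98.

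None of the 15 genes of inhibins, activins and AMH was called higher in cumulus libraries and 8 were called lower (median log2 fold change -0.46). Inha, the alpha subunit shared by inhibins, had 5322, 4159.5 and 3721 CPM in cumulus, against 11234, 9940.4 and 9056 CPM in mural libraries (-1.195 ± 0.19, adjusted p = 7.60e-05). Inhba, a beta subunit, had 3392, 2471 and 2352 CPM in cumulus, against 7510.2, 6712 and 5592 CPM in mural libraries (-1.27 ± 0.27), while the other beta subunit gene Inhbb had 10262, 6946 and 6892 CPM in cumulus, against 9708, 8142 and 7573 CPM in mural libraries and was not called (-0.08 ± 0.24, adjusted p = 0.81). Cumulus replicate 1 had the highest Inhbb level of all 6 libraries, and both other genes separated the groups. The receptor genes Tgfbr1, with 85.8 ± 16.9 CPM in cumulus and 227 ± 12.7 CPM in mural libraries (SD, n = 3; -1.41 ± 0.18), and Tgfbr2, with 4.13 ± 0.9398 CPM in cumulus and 11.2 ± 0.888 CPM in mural libraries (-1.43 ± 0.16), were lower. Fstl1, a secreted follistatin relative that is abundant in connective tissue, was lower too, at 2.32 ± 0.179 CPM in cumulus and 27.5 ± 5.43 CPM in mural libraries (-3.57 ± 0.19), in the direction of the stroma markers, whose part was not tested.

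The bone morphogenetic protein (BMP) genes were called in both directions, 8 of 20 higher and 8 lower, against 21.5% and 25.3% of all genes. The median log2 fold change was 0.05. It was -0.08 without cumulus replicate 1, 0.10 without cumulus replicate 3 and 0.09 without mural replicate 2. Among ligands, Bmp6 was higher, with 70.5, 90.5 and 88.6 CPM in cumulus, against 22.01, 20.9 and 28.8 CPM in mural libraries (1.7997 ± 0.15, adjusted p = 6.51e-08), and Bmp2 was lower, with 0.191, 0.8804 and 0.414 CPM in cumulus, against 13.7, 12.1 and 19.3 CPM in mural libraries (-4.86 ± 0.54, -5.58 without cumulus replicate 2). Bmpr2, the type II receptor used by BMP15, was lower, at 438 ± 77.9 CPM in cumulus and 975 ± 93.96 CPM in mural libraries (SD, n = 3; -1.16 ± 0.17). The feedback inhibitors of SMAD signalling were higher: Smad7 had 148, 133 and 119 CPM in cumulus, against 26.2, 31.2 and 23.99 CPM in mural libraries (2.299 ± 0.21). Smad6 had 27.2 ± 3.96 CPM in cumulus and 10.4 ± 0.654 CPM in mural libraries (1.39 ± 0.17). Id3, a direct target of BMP signalling, was higher at 359.9 ± 25.4 CPM in cumulus and 192 ± 18.7 CPM in mural libraries (0.90 ± 0.17). Among the secreted antagonists, Nog was higher, with 10.4, 8.92 and 8.41 CPM in cumulus, against 0.468, 1.06 and 0.546 CPM in mural libraries (3.75 ± 0.41), and Grem1 was lower, with 209.8, 154 and 136 CPM in cumulus, against 588, 543 and 476 CPM in mural libraries (-1.69 ± 0.21, adjusted p = 5.07e-06). Grem1 is best known as a gene of expanding cumulus cells, and before hCG its level was higher in every mural library.

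**Figure D4:**
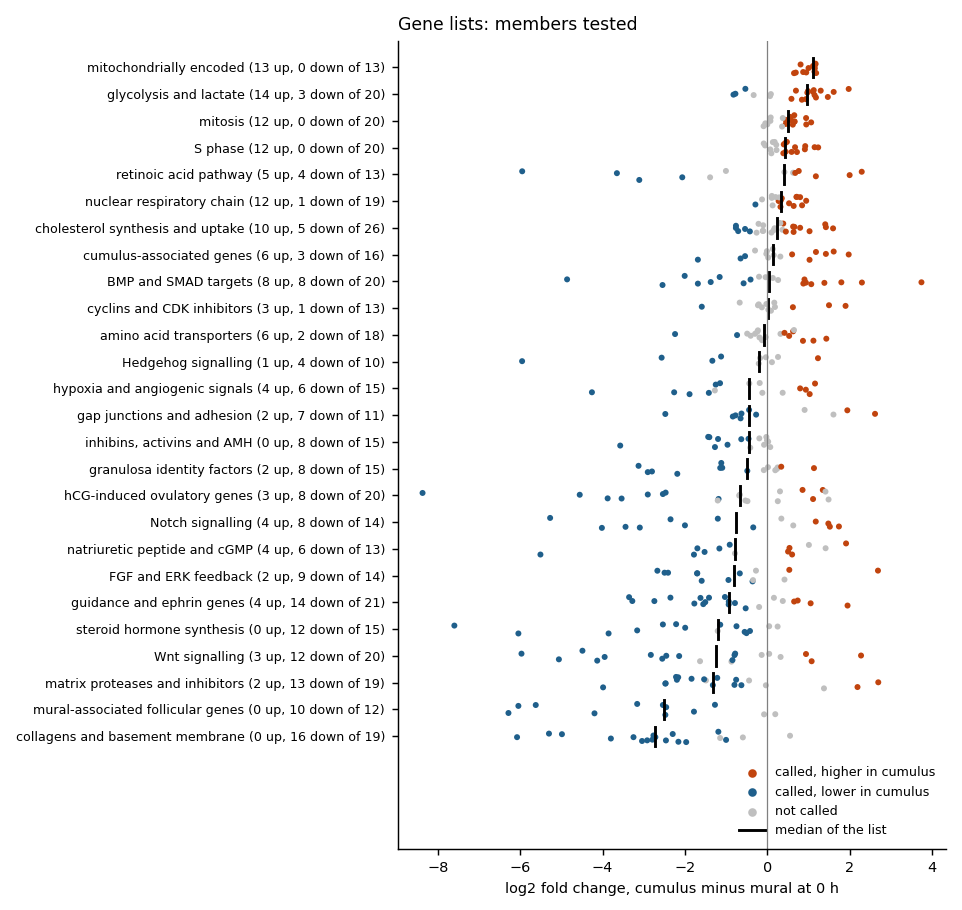
Log2 fold change of cumulus over mural libraries at 0 h for every tested gene of each list, 1 point per gene, coloured where called higher or lower and grey where not called, with a black bar at the list median. Glycolysis (median 0.96) and mitochondrially encoded genes (1.11) lie mostly above 0, and collagens (-2.72) and matrix proteases (-1.32) mostly below it.

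Most genes of glycolysis were higher in cumulus libraries. Of 20 genes of glycolysis and lactate, 14 were called higher and 3 lower (median log2 fold change 0.96), against 21.5% and 25.3% of all genes. Pfkp, the platelet form of phosphofructokinase, had 274, 208 and 242 CPM in cumulus, against 66.4, 56.6 and 60.7 CPM in mural libraries (1.98 ± 0.17, adjusted p = 8.56e-08). Ldha, a lactate dehydrogenase subunit, had 1812, 1292 and 1334 CPM in cumulus, against 549, 468 and 433 CPM in mural libraries (1.61 ± 0.20). Tpi1, triosephosphate isomerase, had 1192, 849.9 and 889 CPM in cumulus, against 401, 336 and 320.2 CPM in mural libraries (1.47 ± 0.18). In all 3 every cumulus library was far above the highest mural library. Pkm, pyruvate kinase, was at 2146 ± 389 CPM in cumulus and 873 ± 93.6 CPM in mural libraries (SD, n = 3; 1.298 ± 0.16). Pgk1, phosphoglycerate kinase, was at 688 ± 141 CPM in cumulus and 310.4 ± 40.6 CPM in mural libraries (1.15 ± 0.20). Slc2a1, a glucose transporter, was not called at 69.3 ± 13.9 CPM in cumulus and 65.2 ± 3.49 CPM in mural libraries (0.09 ± 0.17, adjusted p = 0.69). Several glycolytic genes have processed pseudogenes, with which some reads may be shared.

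The respiratory chain moved in the same direction. All 13 mitochondrially encoded genes were called higher (median log2 fold change 1.11, and 0.80 to 1.26 over the alternatives), as were 12 of 19 nuclear genes of the chain, with 1 lower (median 0.32). No nuclear gene was lower without any 1 of cumulus replicates 2 and 3 and mural replicate 1. The mt-Co2 transcript, a cytochrome oxidase subunit, had 14664, 7964 and 7988 CPM in cumulus, against 4295, 4255 and 4896 CPM in mural libraries (1.19 ± 0.22, adjusted p = 0.00029). Mitochondrially encoded genes took 12.6%, 8.40% and 8.42% of the counts in cumulus and 4.81%, 4.97% and 5.99% in mural libraries, so that cumulus replicate 1 stood above the other two while the groups stayed apart. Among the nuclear genes, Cox5b had 123 ± 16.3 CPM in cumulus and 63.9 ± 3.34 CPM in mural libraries (SD, n = 3; 0.95 ± 0.10). Ndufa1 had 26.9 ± 2.07 CPM in cumulus and 14.9 ± 0.857 CPM in mural libraries (0.85 ± 0.13). Cox4i1 had 304 ± 42.1 CPM in cumulus and 185 ± 8.48 CPM in mural libraries (0.72 ± 0.11). None of the 13 mitochondrial genes was called higher at 4 or 12 h.

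Genes of cholesterol synthesis and uptake differed in both directions. Of 26 genes, 10 were called higher and 5 lower, against 21.5% and 25.3% of all genes. The median log2 fold change was 0.24. It was 0.11, with 7 higher, without cumulus replicate 1, and 0.36 without mural replicate 1. Mvd, which makes isopentenyl diphosphate, had 108, 74.8 and 77.4 CPM in cumulus, against 34.8, 28.3 and 22.8 CPM in mural libraries (1.598 ± 0.20, adjusted p = 4.70e-06). Mvk, mevalonate kinase, had 149 ± 26.3 CPM in cumulus and 55.7 ± 7.92 CPM in mural libraries (SD, n = 3; 1.42 ± 0.16). Acat2, an enzyme at the head of the pathway, had 86.2 ± 18.6 CPM in cumulus and 32.5 ± 2.44 CPM in mural libraries (1.41 ± 0.17). Fdps, which makes farnesyl diphosphate, had 148 ± 31.4 CPM in cumulus and 72.7 ± 10.9 CPM in mural libraries (1.03 ± 0.17). All 4 were higher in every cumulus library. Insig1, which restrains the pathway when sterols are plentiful, was higher at 179 ± 19.8 CPM in cumulus and 103 ± 12.7 CPM in mural libraries (0.80 ± 0.12).

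Of 18 amino acid transporter genes, 6 were called higher and 2 lower, against 21.5% and 25.3% of all genes. The median log2 fold change was -0.08, and it was -0.03 without cumulus replicate 2 and -0.04 without mural replicate 1. Slc38a4, a sodium-coupled neutral amino acid transporter, had 15.4, 12.5 and 13.2 CPM in cumulus, against 5.74, 7.504 and 5.68 CPM in mural libraries (1.12 ± 0.20, adjusted p = 0.00023). Slc7a8, a light chain of the large neutral amino acid exchanger, had 64.6, 58.05 and 68.9 CPM in cumulus, against 316, 317 and 272 CPM in mural libraries and was lower (-2.24 ± 0.15), as was Slc38a2, at 296 ± 21.5 CPM in cumulus and 492 ± 28.3 CPM in mural libraries (SD, n = 3; -0.73 ± 0.14). The groups did not overlap for these 3 genes. Slc7a11, the cystine importer, had 10.2, 33.8 and 37.2 CPM in cumulus, against 7.46, 8.99 and 13.7 CPM in mural libraries. It was called higher (1.43 ± 0.32) but tracked oocyte RNA, and the call was lost with the covariate (0.70, adjusted p = 0.11) and with the libraries of 0 h only (1.46, adjusted p = 0.086).

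More cell cycle genes were higher than lower in cumulus libraries, by small amounts. Of 20 S phase genes 12 were called higher and none lower (median log2 fold change 0.42), and of 20 mitosis genes again 12 and none (median 0.50). Gins2, a part of the replicative helicase, had 44.5, 36.2 and 36.7 CPM in cumulus, against 17.2, 16.8 and 15.8 CPM in mural libraries (1.24 ± 0.15, adjusted p = 3.99e-06). Cdt1, which licenses origins, had 75.9 ± 3.87 CPM in cumulus and 40.02 ± 4.07 CPM in mural libraries (SD, n = 3; 0.92 ± 0.17). Birc5, which encodes survivin of the chromosomal passenger complex, had 105, 101 and 109.6 CPM in cumulus, against 55.6, 48.98 and 46.3 CPM in mural libraries (1.07 ± 0.22). Aurka, a spindle kinase, had 108 ± 4.89 CPM in cumulus and 55.9 ± 4.59 CPM in mural libraries (0.95 ± 0.13). Groups were apart for these 4 genes. Mki67, a proliferation antigen, had 479.6, 394 and 425 CPM in cumulus, against 451, 418 and 356 CPM in mural libraries and was not called (0.08 ± 0.12, adjusted p = 0.59). Among cyclins and CDK inhibitors, 3 of 13 were higher, a share near the 21.5% of all genes, and 1 was lower, against 25.3%. The median of 0.03 became -0.15 without cumulus replicate 1 and 0.16 without cumulus replicate 2, and the count of those lower ran from 0 to 2 leaving out 1 library. The 3 higher included Gadd45g, a stress-induced growth regulator, at 79.1 ± 7.25 CPM in cumulus and 21.2 ± 1.73 CPM in mural libraries (1.902 ± 0.20) and Cdk4, the partner of D-type cyclins, at 329 ± 44.8 CPM in cumulus and 213 ± 19.2 CPM in mural libraries (0.62 ± 0.15).

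Matrix genes were mostly lower in cumulus libraries. Of 19 genes of collagens and basement membrane, 16 were called lower and none higher (median log2 fold change -2.72). Col4a1, a chain of basement membrane collagen, had 3.77, 4.44 and 4.09 CPM in cumulus, against 235, 226 and 372 CPM in mural libraries (-6.08 ± 0.25, adjusted p = 1.79e-11). Col4a2, its partner chain, had 4.61, 4.202 and 3.86 CPM in cumulus, against 143, 136 and 221 CPM in mural libraries (-5.302 ± 0.22). Lamb2, a laminin chain of basement membranes, had 77.9, 59.8 and 55.3 CPM in cumulus, against 460.3, 389 and 420.2 CPM in mural libraries (-2.72 ± 0.14). Hspg2, which encodes perlecan, had 82.1 ± 13.5 CPM in cumulus and 366 ± 61.5 CPM in mural libraries (SD, n = 3; -2.16 ± 0.19). The lowest mural library was above the highest cumulus library for all of them. Vcan, the hyaluronan-binding proteoglycan versican, had 251, 178 and 178 CPM in cumulus, against 1527, 1356 and 1236 CPM in mural libraries (-2.76 ± 0.21). Fn1, fibronectin, had 14.2 ± 2.24 CPM in cumulus and 135 ± 28.8 CPM in mural libraries (-3.25 ± 0.22). The fibrillar collagens differed by more than these. Col3a1 had 2.05, 0.9805 and 0.391 CPM in cumulus, against 239.7, 191 and 368 CPM in mural libraries (-7.903 ± 0.52, -8.57 without cumulus replicate 1). Col1a1 had 3.55, 2.18 and 2.55 CPM in cumulus, against 297, 218 and 437 CPM in mural libraries (-6.86 ± 0.34). Col1a2 had 4.91, 2.34 and 1.65 CPM in cumulus, against 308, 229 and 451 CPM in mural libraries (-6.81 ± 0.57). Fibrillar collagens are themselves markers of stroma, whose sum includes these genes (23.0 to 37.3 CPM in cumulus, 739 to 1450 CPM in mural libraries). Its difference in the same direction is therefore no separate observation. Within the mural libraries replicate 3 had the highest Col1a1 and Col3a1 and, in part because of them, the highest stroma sum. Col4a1, which is not in that sum, was highest in mural replicate 3 too. The part of stroma RNA was not tested.

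Col4a1 and Col4a2, which were lower together, lie head to head, with start sites 21 bases apart, and their windows are shown because they share sequence. The RefSeq windows of GRCm38.p6 are chr8:11312777-11313076 (minus strand) and chr8:11312555-11312854 (plus strand), and capitals mark the 78 bases that lie in both, read on opposite strands.
Col4a1: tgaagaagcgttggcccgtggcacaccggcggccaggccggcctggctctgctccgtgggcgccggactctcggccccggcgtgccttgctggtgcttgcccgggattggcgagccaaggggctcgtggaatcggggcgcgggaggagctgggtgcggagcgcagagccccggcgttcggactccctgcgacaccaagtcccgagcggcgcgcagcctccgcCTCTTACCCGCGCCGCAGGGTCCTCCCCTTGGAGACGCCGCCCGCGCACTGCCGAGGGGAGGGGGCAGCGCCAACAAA
Col4a2: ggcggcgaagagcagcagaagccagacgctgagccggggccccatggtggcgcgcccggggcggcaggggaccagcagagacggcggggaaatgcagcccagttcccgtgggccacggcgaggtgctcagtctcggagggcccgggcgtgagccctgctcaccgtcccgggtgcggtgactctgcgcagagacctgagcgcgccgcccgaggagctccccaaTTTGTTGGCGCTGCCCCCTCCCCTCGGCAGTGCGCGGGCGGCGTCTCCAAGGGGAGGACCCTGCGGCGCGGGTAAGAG

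Proteases and their inhibitors were mostly lower in cumulus libraries, with 13 of 19 called lower and 2 higher, against 25.3% and 21.5% of all genes. The median log2 fold change was -1.32, and 1 gene was higher without any 1 of cumulus replicates 2 and 3 and mural replicates 1 and 2. Adamts1, a protease that cuts versican, had 37.2, 21.2 and 23.8 CPM in cumulus, against 168, 135 and 151 CPM in mural libraries (-2.47 ± 0.27, adjusted p = 1.19e-06). Plau, the urokinase plasminogen activator, had 17.1, 13.7 and 11.1 CPM in cumulus, against 85.2, 70.6 and 76.9 CPM in mural libraries (-2.48 ± 0.14). Mmp14, a membrane-bound metalloproteinase, had 55.7, 39.2 and 40.1 CPM in cumulus, against 214, 211 and 202 CPM in mural libraries (-2.22 ± 0.16). Timp3, a matrix-bound inhibitor of these enzymes, had 1.94, 1.08 and 0.781 CPM in cumulus, against 20.5, 21.6 and 17.5 CPM in mural libraries (-3.99 ± 0.29). All 4 separated the groups. Plat, the tissue plasminogen activator that oocytes also store, was called higher but tracked oocyte RNA, with 44.99, 209 and 215 CPM in cumulus, against 9.35, 20.1 and 43.1 CPM in mural libraries (2.696 ± 0.62, 3.46 without mural replicate 3). Its call was lost with the libraries of 0 h only (2.71, adjusted p = 0.0507), and its log2 fold change was 0.92 with the oocyte sum as a covariate.

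In the Wnt list 12 of 20 genes were called lower and 3 higher, against 25.3% and 21.5% of all genes. The median log2 fold change was -1.25, and 1 gene was higher without mural replicate 1 or mural replicate 2. Sfrp4, a secreted Wnt antagonist, had 1.15, 3.96 and 0.896 CPM in cumulus, against 62.4, 173 and 152 CPM in mural libraries (-5.97 ± 0.48, -6.98 without cumulus replicate 2). Sfrp1, a relative, had 0.901, 0.2801 and 0.4596 CPM in cumulus, against 8.29, 8.08 and 11.95 CPM in mural libraries (-4.13 ± 0.40, adjusted p = 2.68e-07). Both were far lower in every cumulus library, and mural replicate 1 had the lowest Sfrp4 level of its group. Tcf7, a transcription factor of the pathway, was higher, at 128 ± 12.5 CPM in cumulus and 66.6 ± 6.02 CPM in mural libraries (SD, n = 3; 0.94 ± 0.13). Of the 14 Notch genes, 4 were higher and 8 lower, against 21.5% and 25.3% of all genes (median -0.77). Notch1 had 2.16, 1.24 and 1.15 CPM in cumulus, against 31.1, 20.9 and 21.04 CPM in mural libraries (-4.02 ± 0.26, adjusted p = 2.05e-09). Notch2, the receptor known from granulosa cells, had 51.5 ± 6.91 CPM in cumulus and 118 ± 11.2 CPM in mural libraries (-1.201 ± 0.15). Both receptors were lower, whereas the target Heyl, a transcriptional repressor, was higher, with 153, 118 and 127 CPM in cumulus, against 45.7, 49.8 and 43.5 CPM in mural libraries (1.52 ± 0.19), as was Hes1, at 7.64 ± 1.12 CPM in cumulus and 3.37 ± 0.504 CPM in mural libraries (1.18 ± 0.18). Of 10 Hedgehog genes 4 were lower and 1 higher, against 25.3% and 21.5% of all genes (median -0.19). That median was -0.32 without cumulus replicate 1, -0.10 without cumulus replicate 3 and -0.09 without mural replicate 1. Hhip, which binds and blocks the ligands, had 0.0273, 0.2001 and 0.161 CPM in cumulus, against 8.41, 7.202 and 10.4 CPM in mural libraries (-5.95 ± 0.60). Gli1, a transcriptional target and theca marker, had 1.45, 0.5603 and 1.29 CPM in cumulus, against 6.11, 4.13 and 9.18 CPM in mural libraries (-2.57 ± 0.36). Sufu, a repressor inside the cell, was higher, at 140.4 ± 6.58 CPM in cumulus and 59.8 ± 2.12 CPM in mural libraries (1.23 ± 0.10). Hhip and Gli1 moved with the theca markers, whose part was not tested.

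Retinoic acid genes were apart in both directions, 5 of 13 higher and 4 lower, against 21.5% and 25.3% of all genes (median log2 fold change 0.42, which became -0.01 without cumulus replicate 1, -0.22 without cumulus replicate 2, -0.38 without cumulus replicate 3 and -0.42 without mural replicate 1). Crabp2, which carries retinoic acid to its receptor, had 159, 125 and 119 CPM in cumulus, against 29.9, 28.1 and 24.2 CPM in mural libraries (2.29 ± 0.17, adjusted p = 1.08e-08). Stra6, which takes up retinol, had 53.4, 40.5 and 43.7 CPM in cumulus, against 12.1, 11.6 and 10.7 CPM in mural libraries (2.001 ± 0.34). Carrier and importer were higher in cumulus libraries. Aldh1a1, which makes retinoic acid, had 23.9, 22.5 and 17.8 CPM in cumulus, against 267, 243 and 296 CPM in mural libraries (-3.65 ± 0.30, adjusted p = 5.11e-08). Cyp26b1, which degrades it, had 0.109, 0.4202 and 0.0919 CPM in cumulus, against 12.7, 12.9 and 14.99 CPM in mural libraries (-5.95 ± 0.62, -7.02 without cumulus replicate 2). Both enzymes were lower in every cumulus library.

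Of 15 genes of hypoxia and angiogenic signals, 4 were called higher, a share near the 21.5% of all genes, and 6 lower, against 25.3% (median log2 fold change -0.44). Vegfa, the main growth factor for vessels, was higher, with 376, 317 and 353 CPM in cumulus, against 161, 169 and 138 CPM in mural libraries (1.16 ± 0.17, adjusted p = 2.00e-05). Its receptor gene Kdr was lower, with 0.164, 0.5803 and 0.414 CPM in cumulus, against 5.62, 6.67 and 10.7 CPM in mural libraries (-4.26 ± 0.42), and Angpt2, a vessel-destabilising ligand, was at 2.12 ± 1.12 CPM in cumulus and 7.81 ± 1.69 CPM in mural libraries (SD, n = 3; -1.89 ± 0.34). Kdr is also an endothelial marker, and 7 of the 10 endothelial markers were lower in cumulus libraries; their part was not tested.

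Fibroblast growth factor (FGF) and ERK feedback genes were mostly lower, with 9 of 14 called lower and 2 higher, against 25.3% and 21.5% of all genes. The median log2 fold change was -0.80, and 1 gene was higher without cumulus replicate 1 or any 1 mural library. Dusp6, a phosphatase of ERK, had 1.69, 0.6003 and 0.4596 CPM in cumulus, against 5.05, 5.77 and 4.196 CPM in mural libraries (-2.49 ± 0.34, -3.23 without cumulus replicate 1). Spry4, a feedback inhibitor, had 13.2, 66.9 and 68.5 CPM in cumulus, against 3.12, 6.82 and 13.2 CPM in mural libraries (2.69 ± 0.61, 3.37 without mural replicate 3) and tracked oocyte RNA. Its lowest log2 fold change over the alternatives was 0.82.

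Genes that hCG induces later were at low or unequal levels before it. Of 20 such genes 3 were called higher and 8 lower, against 21.5% and 25.3% of all genes. The median log2 fold change was -0.67, and it was -1.69, with 2 higher, without cumulus replicate 1. Areg, which encodes the EGF-like ligand amphiregulin, had 0 counts in the 3 cumulus libraries and 146 counts in the mural libraries, so that it was at least 46.5-fold lower in cumulus libraries, taking 3 counts over the group as the floor. Pgr, the progesterone receptor, had 0.191, 0.08004 and 0.161 CPM in cumulus, against 2.21, 1.96 and 2.08 CPM in mural libraries (-3.88 ± 0.54, adjusted p = 1.69e-05). Runx1, a transcription factor, had 46.3 ± 3.91 CPM in cumulus and 21.4 ± 1.95 CPM in mural libraries (SD, n = 3; 1.11 ± 0.19). Cebpb, another, had 156 ± 12.7 CPM in cumulus and 86.4 ± 6.27 CPM in mural libraries (0.86 ± 0.13). Both factors were higher, with no overlap. Has2, the hyaluronan synthase of the expanding cumulus, had 2.84, 1.48 and 1.01 CPM in cumulus, against 0.781, 0.529 and 0.721 CPM in mural libraries and was called higher (1.35 ± 0.44), but the call was lost without the filter (1.34), cumulus replicate 1 (0.87), mural replicate 1 (1.47) or mural replicate 2 (1.22). Egr1 and Fos, immediate early genes, were not called: Egr1 had 353, 16.7 and 15.5 CPM in cumulus, against 105, 20.2 and 18.8 CPM in mural libraries (1.41 ± 0.98, adjusted p = 0.25). Fos had 341, 40.3 and 27.8 CPM in cumulus, against 106, 20.6 and 19.1 CPM in mural libraries (1.49 ± 0.84, adjusted p = 0.16). Replicate 1 was the highest library of both groups for both genes, and without cumulus replicate 1 the log2 fold changes were -1.58 for Egr1 and -0.52 for Fos. Both were called higher with the oocyte sum as a covariate (2.91 for Egr1 and 2.997 for Fos), and Fos without mural replicate 1 (2.76).

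Of 15 granulosa identity factors 2 were called higher and 8 lower, against 21.5% and 25.3% of all genes (median log2 fold change -0.48), with 1 higher without cumulus replicate 3, mural replicate 1 or mural replicate 2. Foxl2, which keeps granulosa cells in the ovarian fate, had 547, 444 and 431 CPM in cumulus, against 448, 418 and 341 CPM in mural libraries and was not called (0.24 ± 0.16, adjusted p = 0.24), except with the oocyte sum as a covariate (0.57, adjusted p = 0.0047). Gata6, a transcription factor of granulosa cells, was lower at 109 ± 14.2 CPM in cumulus and 235 ± 25.5 CPM in mural libraries (SD, n = 3; -1.12 ± 0.18). Gata4, a close relative, was lower at 301 ± 41.6 CPM in cumulus and 421 ± 48.3 CPM in mural libraries (-0.48 ± 0.14), a call that was lost with the oocyte sum as a covariate (-0.17, adjusted p = 0.24). Cited2, a transcriptional coregulator, had 29.6, 43.3 and 40.6 CPM in cumulus, against 304, 278 and 209 CPM in mural libraries (-2.8003 ± 0.20, adjusted p = 6.86e-09). Esr1, the oestrogen receptor alpha, was higher, with 40.3, 37.4 and 45.5 CPM in cumulus, against 18.3, 18.6 and 19.1 CPM in mural libraries (1.13 ± 0.28, adjusted p = 0.0033), a call lost with the oocyte sum as a covariate (0.67, adjusted p = 0.064).

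Of 21 guidance and ephrin genes 4 were called higher and 14 lower, against 21.5% and 25.3% of all genes (median log2 fold change -0.94). Plxnb1, a receptor for semaphorins, had 51.03, 43.9 and 45.8 CPM in cumulus, against 339, 303 and 298 CPM in mural libraries (-2.74 ± 0.13, adjusted p = 1.01e-10), while Sema4d, its ligand, had 77.9, 61.6 and 60.6 CPM in cumulus, against 16.9, 16.3 and 18.6 CPM in mural libraries (1.95 ± 0.18). Receptor and ligand lay on opposite sides. Robo1, a receptor for Slit proteins, was lower at 161 ± 21.7 CPM in cumulus and 495 ± 60.7 CPM in mural libraries (SD, n = 3; -1.62 ± 0.16), and Efna5, an ephrin ligand, was higher at 159 ± 8.67 CPM in cumulus and 76.7 ± 3.09 CPM in mural libraries (1.05 ± 0.08).

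Whether differences present before hCG were also found later was read from the 4 h and 12 h libraries, which share no library with the comparison at 0 h but share with it 1 estimate of spread over all 18 libraries. Of the 4295 genes called higher at 0 h, 3024 (70.4%) were called higher at 4 h and 174 lower. Of the 5038 called lower, 3403 (67.5%) were lower at 4 h and 143 higher. Of all genes tested, 54.5% were called at 4 h, 27.6% higher and 27% lower. At 12 h, 1202 (28%) of the genes higher at 0 h were higher and 950 (22.1%) lower. In the other direction, 1539 (30.5%) of those lower at 0 h were lower and 928 (18.4%) higher. Of all genes, 38.5% were called at 12 h, 18% higher and 20.5% lower. Fitted to the libraries of each time alone, 9291 genes were called at 0 h, of which 4739 recurred at 4 h and 3613 at 12 h, against 6427 and 2741 in the fit to all 18. Of the 2066 genes at least 2-fold higher at 0 h, 77.6% were called higher at 4 h. At 12 h 380 of them (18.4%) were called higher and 641 (31%) lower. Of the 2613 at least 2-fold lower, 70.6% were lower at 4 h. At 12 h 1103 of them (42.2%) were lower and 293 (11.2%) higher. Without the genes that tracked oocyte markers, 62.1% of those higher and 68.2% of those lower recurred at 4 h, and 35.9% of those higher and 30% of those lower at 12 h. Oocyte marker sums in the cumulus libraries were 1209 to 7559 CPM at 4 h and 6.10 to 10.96 CPM at 12 h, against 175.4 to 264.3 CPM at 4 h and 137.6 to 323 CPM at 12 h in mural libraries. Their part in the change was not tested. With the oocyte sum as a covariate 4167 genes recurred at 4 h and 1321 at 12 h, against 6427 and 2741 without it. Across genes the log2 fold changes correlated with those at 0 h with r = 0.691 at 4 h and r = 0.045 at 12 h, a description over genes, which are not independent.

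At all 3 times 946 genes were called higher and 1289 lower in cumulus libraries. Lhcgr was lower at each, with -6.99 ± 0.53 at 4 h and -7.09 ± 0.53 at 12 h on the log2 scale. Bmp6 was higher at each, at 1.65 ± 0.15 and 2.92 ± 0.16, as was Crabp2, at 2.05 ± 0.17 and 1.799 ± 0.17. Ndufa4l2 was higher at 2.62 ± 0.30 and 3.95 ± 0.30. Other differences did not last: Rbfox1 was at 0.41 ± 0.11 at 4 h (adjusted p = 0.0053) and -0.12 ± 0.11 at 12 h (adjusted p = 0.41), and Kctd14, Otof and Cnga1 were lower in cumulus libraries at 12 h (-2.72 ± 0.40, -2.85 ± 0.24 and -2.08 ± 0.20). Grem1 was lower in cumulus libraries at 0 h and higher at 4 h (1.43 ± 0.21) and 12 h (4.44 ± 0.24). Stra6, higher at 0 h, was lower at 12 h (-6.22 ± 0.48, adjusted p = 2.47e-08).

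**Figure D5:**
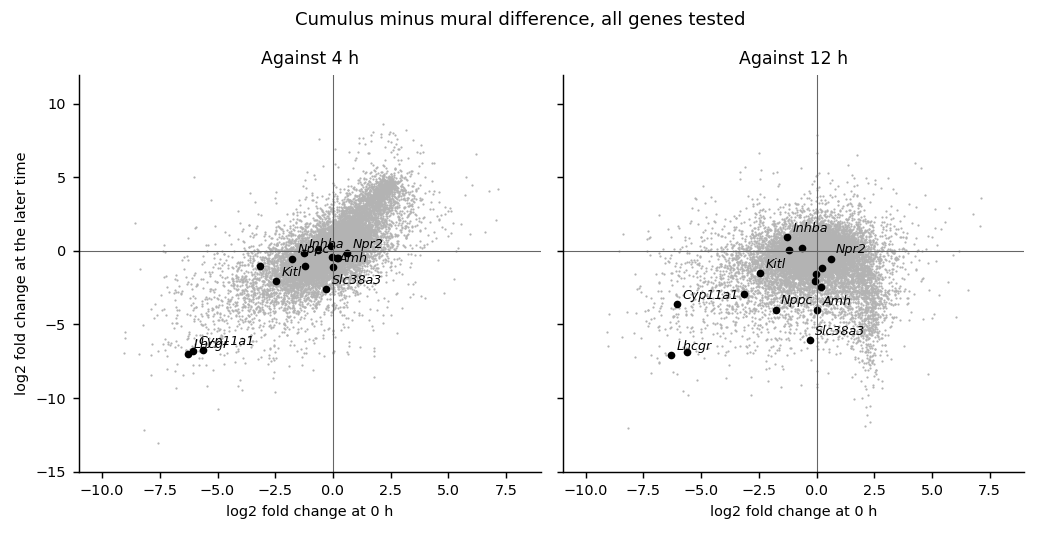
Log2 fold change of cumulus over mural libraries at 4 h (left) and 12 h (right) against that at 0 h, 1 grey point per gene tested, with the 16 follicular genes in black. The cloud follows the diagonal at 4 h (r = 0.691) and not at 12 h (r = 0.045), while Lhcgr stays far below 0 at all times.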

How the data were processed

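The deposited table holds raw counts of uniquely mapped reads per gene for 18 libraries, with 41325 entries. Per the labels' protocols and design text, RNA was extracted with RNeasy kits, polyA-enriched stranded libraries were sequenced on an Illumina NovaSeq, and the authors aligned and counted the reads in CLC Genomics Workbench at default settings; the submitters' processing notes name the genome GRCm38. Other parameters are not stated. Groups were taken from the titles.

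Counts were tested with edgeR 4.0.16 (limma 3.58.1, R 4.3.3): TMM scaling, filterByExpr with a minimum count of 10, a robust quasi-likelihood fit with 1 mean for each of the 6 groups over all 18 libraries, and the contrast of cumulus minus mural at 0 h. This left 19941 genes, with 99.964% of the counts. p-values were adjusted over all of them by Benjamini-Hochberg at 0.05. CPM were computed from the deposited counts on TMM-scaled totals. Contrasts at 4 h and 12 h, and their differences from 0 h, came from the same fit. Genes were called oocyte-linked where their within-group deviations correlated (r of at least 0.7, 18 libraries) with the summed oocyte markers. Coordinates are those of GENCODE M21 (GRCm38), matched by symbol for 40826 entries, and promoter windows those of RefSeq. Alternatives were library totals as the scaling, DESeq2 1.42.0, no filter, a fit to the 6 libraries of 0 h only, the oocyte sum as a covariate, the replicate number as a block, and each library of 0 h left out in turn. The test was also tried on simulated data. No 2 libraries agreed within sampling noise (chi-square per degree of freedom of 8.71 or more within groups).

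The 36 lists and the genes named were chosen with earlier results of these data known. Named are 16 follicular genes, the 10 largest rises and falls among called, non-overlapping genes of at least 20 CPM with no oocyte link, the 5 largest oocyte-linked rises, up to 4 called genes of each list, and further genes chosen for their role. Clone and predicted names were left out of the rankings. Some genes that the rule names are not reported here.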

Additional observations from a re-analysis of the deposited data

Results flagged for a closer look

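The cumulus minus mural difference at 0 h was compared with that at the later times by a contrast of contrasts in the same fit (edgeR, adjusted over all genes), and differed for 2800 genes (14%) at 4 h and 8003 genes (40.1%) at 12 h. Of the 16 follicular genes followed throughout, 5 differed at 4 h and 13 at 12 h. All values are on the log2 scale as the later difference minus that at 0 h, with the standard error.

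At 4 h the difference had moved towards the mural side for Slc38a3, by -2.30 ± 0.41 (adjusted p = 0.000929), the amino acid transporter whose libraries overlapped at 0 h. It had also moved that way for Foxl2 (-0.74 ± 0.23, adjusted p = 0.0394) and Npr2 (-0.74 ± 0.23, adjusted p = 0.0409). It had moved towards the cumulus side for Cyp19a1, aromatase (2.17 ± 0.35, adjusted p = 0.000482), and for Nppc, the CNP precursor (1.25 ± 0.39, adjusted p = 0.0393).

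At 12 h the move towards the mural side was -5.77 ± 0.46 for Slc38a3 (adjusted p = 5.86e-08) and -4.04 ± 0.60 for Amh (adjusted p = 4.9e-05). The receptor genes Fshr (-2.67 ± 0.28, adjusted p = 1.15e-06), Amhr2 (-1.53 ± 0.27, adjusted p = 0.000234) and Npr2 (-1.13 ± 0.23, adjusted p = 0.000922) moved that way too, as did Nppc (-2.20 ± 0.48, adjusted p = 0.00156), Inhbb (-1.99 ± 0.34, adjusted p = 0.000166) and Foxl2 (-1.37 ± 0.23, adjusted p = 0.000157). Moves towards the cumulus side were 2.41 ± 0.55 for Cyp11a1 (adjusted p = 0.00215), 2.23 ± 0.38 for Inhba (adjusted p = 0.000177), 1.27 ± 0.27 for Inha (adjusted p = 0.00122), 0.95 ± 0.33 for Kitl (adjusted p = 0.0281) and 0.88 ± 0.24 for Gja1 (adjusted p = 0.00763).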

How the results depend on the processing

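Against 9333 genes called at 0 h, the count was 9250 with library totals, 9898 with DESeq2, 8278 without the filter, 9291 with the libraries of 0 h only and 7443 to 9228 leaving out 1 library, with 3111 to 4183 higher and 4233 to 5045 lower; asking for a 2-fold difference gave 4679. With the oocyte sum as a covariate it was 8016, of which 6591 were shared with the 9333. Recurrence then moved most, to 4167 genes at 4 h (6427 without the covariate; 5100 to 6673 leaving out 1 library) and 1321 at 12 h (2741; 2420 to 2617); the cause was not tested. The replicate number as a block gave 9550 calls, 9165 of them shared; same-numbered libraries correlated at 0.555, -0.0814 and 0.427, so the numbers were not taken to pair the libraries. Some signs turned. Amh was -0.048 with library totals, -0.047 with the block and -0.16 to 0.33 leaving out 1 library. Amhr2 was 0.00077 with DESeq2, 0.0078 with the libraries of 0 h only, 0.35 with the covariate and -0.10 to 0.033 leaving out 1 library. Inhbb was 0.28 with the covariate and -0.30 to 0.034 leaving out 1 library. With the covariate Cdh1 was -0.11, Pde3a -0.37 and Bmp15, itself part of the oocyte sum, -0.0012. Leaving out 1 library gave -1.58 to 2.69 for Egr1, -0.52 to 2.76 for Fos, -0.0025 to 0.17 for Mki67 and -0.090 to 0.21 for Slc2a1, the lowest of each without cumulus replicate 1. List medians turned for BMP and SMAD genes (-0.0023 with library totals, -0.076 without cumulus replicate 1), cyclins (-0.027, -0.15 and, without mural replicate 3, -0.018), retinoic acid genes (-0.34 with the covariate, and as given for single libraries), amino acid transporters (0.12 with the covariate), granulosa markers (0.053 with the covariate), lymphocyte markers (-0.13 with the covariate, -0.78 without the filter), macrophage markers (0.22 without mural replicate 3) and neutrophil markers (2.54 without mural replicate 2). With the covariate 8 cumulus-associated genes were higher and 1 lower (median 0.47), 15 and 4 of the cholesterol genes (0.46), 1 and 10 of the steroid genes (-0.89), 5 and 6 of the hCG-induced genes (-0.52), 5 and 4 of the hypoxia genes (-0.05), 3 and 7 of the Notch genes (-1.24), 17 and 0 of the nuclear respiratory genes (0.52), 14 and 1 of the glycolysis genes and 1 and 4 of the gap junction genes (-0.25); with the libraries of 0 h only no gap junction gene or protease was higher, and 2 guidance genes were. For Edn2, Etv4, Cd8a, Adm and the neutrophil list no value was computed from the libraries of 0 h only, where too few counts remained. Depth limits genes under about 0.1 CPM, and theca, stroma and oocyte RNA limit what a difference says of granulosa cells.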

Other observations

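Among oocyte-linked genes, otherwise ranked by the rule above, the largest rises were those of Tent5b, Tuba3a, AU022751, Tfap2e and Bcl2l10. Over the alternatives Tent5b (2.94 ± 0.64) ran from 1.09 to 3.89 and Tuba3a (2.84 ± 0.70) from 0.83 to 3.65. AU022751 (2.79 ± 0.65) ran from 0.76 to 3.56, Tfap2e (2.76 ± 0.67) from 0.71 to 3.49 and Bcl2l10 (2.75 ± 0.66) from 0.82 to 3.48. The highest value of each was that without mural replicate 3. The call of Tuba3a, which has a near-identical copy, was lost without mural replicate 1 (2.48) or mural replicate 2 (2.7). Bcl2l10, a BCL2 relative known from mouse oocytes, had 40.9, 169.6 and 156 CPM in cumulus, against 7.44, 15.1 and 31.8 CPM in mural libraries. Cumulus replicate 1 lay near mural replicate 3 here as for the oocyte markers, and the value was 3.48 without mural replicate 3. Cd8a, a T cell surface protein, had 39 counts over the 3 cumulus libraries and 0 in the mural ones, at least 14-fold higher with 3 counts over the group as the floor. It is 1 of 10 lymphocyte markers, of which 4 were tested, with 2 called higher and 1 lower, against 21.5% and 25.3% of all genes. The others called went both ways, Ms4a1 higher (2.29, and 0.49 to 3 over the alternatives) and Cd79a lower (-1.86). Of the 4 lymphocyte markers tested, 2 tracked the oocyte markers.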
